A study of Mus musculus with 10 samples.

Results

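The cytosolic ribosomal protein genes were examined in RNA sequencing of sorted mouse B lineage cells. Members were the protein coding genes whose symbols follow the Rpl and Rps naming pattern, with Rplp0, Rplp1, Rplp2 and Rpsa added and the Rps6k kinase genes and named pseudogenes left out. The rule found 84 genes among 30205 with a listed transcript, 32 of the small and 52 of the large subunit. It used gene names and no measured value.

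Each ribosomal protein is built into the small or the large ribosomal subunit around ribosomal RNA, so that a ribosome normally needs one copy of nearly every protein. Their messenger RNAs are among the most abundant in growing cells and typically begin with a tract of pyrimidines, the 5′ terminal oligopyrimidine (TOP) tract, through which the mTORC1 kinase and the RNA-binding protein Larp1 govern their translation. Transcription of ribosomal components is a known target of Myc in B cells, and free Rpl5 and Rpl11 can bind Mdm2 and stabilise p53 when ribosome assembly fails.

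There were 10 libraries in 5 groups of 2, from C57BL/6 mice. The lymphoma libraries came from sorted lymphoma cells, and the doubly activated libraries from marginal zone precursor B cells of lymph node. Both carried Rosa-NIKdeltaT3flSTOP, Rosa-Notch2ICN and CD19Cre. The libraries labelled Notch-activated came from lymph node cells labelled marginal zone B cells, with Rosa-Notch2ICN and CD19Cre. The NF-kB-activated libraries came from lymph node marginal zone precursor B cells with Rosa-NIKdeltaT3flSTOP and CD19Cre. The control libraries came from wild type marginal zone precursor B cells of lymph node. NIK is the kinase that starts non-canonical NF-kB signalling, Notch2ICN is the intracellular, active part of Notch2, and CD19Cre acts in B lineage cells. The control label names no Cre, so the effect of Cre and that of the alleles cannot be told apart. The Notch allele and the cell type label cannot be told apart in the Notch-labelled libraries. Neither age nor sex of the mice was available in the labels. No label states that the paired libraries were taken from different mice. The p-values weigh a difference between groups against the spread of libraries within groups, estimated over all 5 groups. That spread may therefore be technical variation only.

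Libraries held 16380889 to 23102081 estimated counts. Map3k14, which encodes NIK, had 153 and 153 CPM in lymphoma, 244 and 255 CPM in doubly activated, 36.5 and 33.4 CPM in Notch-labelled, 220 and 217 CPM in NF-kB-activated and 103 and 130 CPM in control libraries. Notch2 went against the Notch label, at 284 and 278 CPM in Notch-labelled against 652 and 690 CPM in control libraries. It stood at 155 and 179 CPM in lymphoma and 702 and 753 CPM in doubly activated libraries. A single heavy chain V segment held most V segment counts in both Notch-labelled and lymphoma libraries (92.8 and 93.8% Ighv1-55 in Notch-labelled, 92.3 and 92.1% Ighv1-11 in lymphoma), while the leading segment held at most 7.29% elsewhere. The 7 B cell markers summed to 4983 to 5165 CPM in lymphoma, 2835 to 3044 CPM in Notch-labelled, 7309 to 7631 CPM in NF-kB-activated, 7435 to 7584 CPM in doubly activated and 8951 to 9082 CPM in control libraries. The 4 stroma markers summed to 618 to 837 CPM in Notch-labelled libraries and at most 3.10 CPM in the other 4 groups.

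The ribosomal protein genes took up a large share of all transcripts in every group. In TPM, a level corrected for transcript length, their summed share was 17.3 and 16.2% in lymphoma, 19.4 and 20.01% in doubly activated, 17.5 and 17.1% in Notch-labelled, 18.6 and 17.8% in NF-kB-activated and 17.98 and 18.3% in control libraries. The doubly activated libraries were the highest and did not overlap any other group. Of the 84 genes, 67 averaged at least 1000 TPM over the 5 groups. The highest mean levels were those of Rplp1, a stalk protein, at 5302 TPM, Rpl41, the smallest ribosomal protein, at 4967 TPM, Rps24 at 4512 TPM, Rps9 at 4356 TPM and Rps19 at 4350 TPM. The lowest were those of Rps27 at 0, Rpl3l at 0.15 TPM, Rpl10l at 0.435 TPM, Rpl39l at 7.98 TPM and Rpl7l1 at 55.6 TPM. Apart from Rps27, the 5 lowest are paralogs named after a canonical gene.

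Rps27 was listed at 0 in all 10 libraries. The gene Rps27rt on chromosome 9 has the same coding sequence and was listed at 4207 and 4089 TPM in lymphoma, 6017 and 6096 TPM in doubly activated, 1940 and 1988 TPM in Notch-labelled, 6333 and 6789 TPM in NF-kB-activated and 6636 and 6300 TPM in control libraries. The estimates for the shared sequence were thus listed under Rps27rt. Such sharing is general among these genes, whose messenger RNAs have been copied back into the genome many times. Of the 84 members, 76 had at least 1 copy outside the rule. There were 430 copies, of which 405 are annotated as processed pseudogenes. A copy was a gene that shares at least 30% of its 31-base words with a member's coding transcripts. This threshold does not require near-identity. Values are therefore given for the gene alone and, where they differ, for the gene with its copies summed, a setting chosen after seeing the data.

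With copies summed, the families held 20.6 and 19.3% of TPM in lymphoma, 24.8 and 25.5% in doubly activated, 22.1 and 22.0% in Notch-labelled, 23.5 and 22.8% in NF-kB-activated and 23.3 and 23.2% in control libraries. The doubly activated libraries were again highest, and here the lymphoma libraries were lowest. In CPM, read counts scaled by library size and TMM factors, the members alone summed to 81921 and 71227 in lymphoma, 73116 and 78823 in doubly activated, 61730 and 59519 in Notch-labelled, 65572 and 61656 in NF-kB-activated and 64024 and 64993 in control libraries. The lymphoma libraries thus overlapped the doubly activated libraries in CPM and lay below them in TPM, so no order of these groups is read from the sums. Within bulk libraries, fewer cells of a type and less RNA per cell cannot be told apart.

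**Figure D1:**
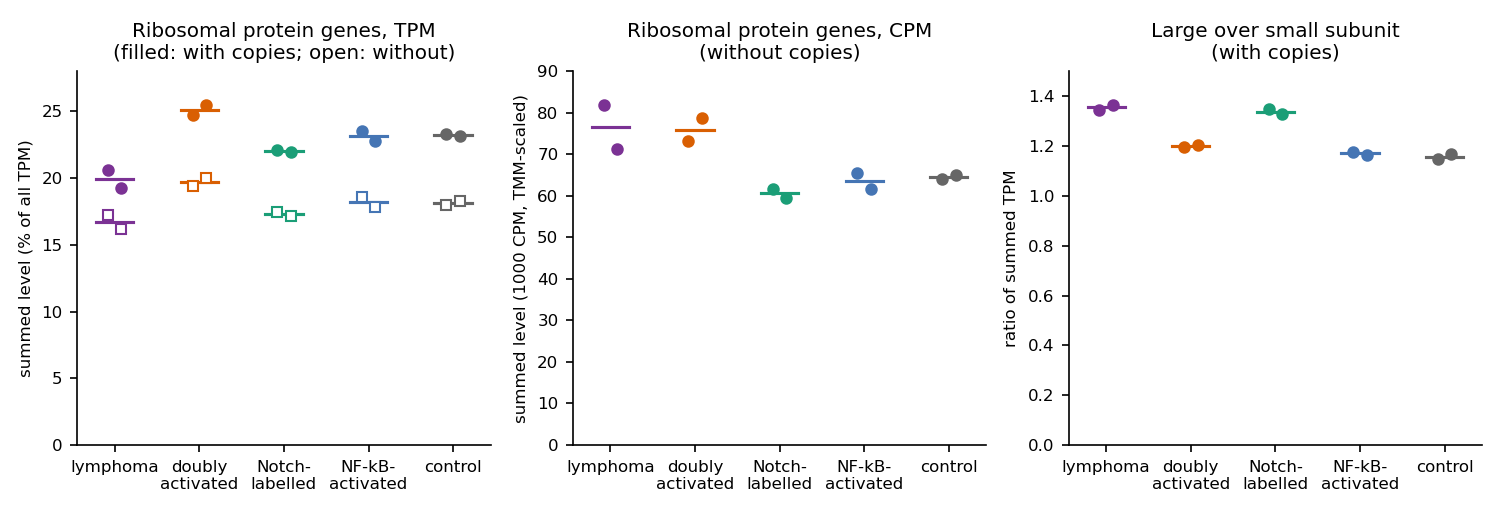
Summed level of the ribosomal protein genes in each library, as a percentage of all TPM (left; filled circles with copies, open squares without), as TMM-scaled CPM (middle, axis in units of 1000) and as the ratio of large to small subunit TPM with copies (right). Points are libraries and lines are group means; the ratio was 1.34 and 1.37 in lymphoma and 1.35 and 1.33 in Notch-labelled libraries, above the other 3 groups.

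The balance between the subunits differed between groups. With copies summed, large subunit TPM divided by small subunit TPM was 1.34 and 1.37 in lymphoma, 1.20 and 1.20 in doubly activated, 1.35 and 1.33 in Notch-labelled, 1.18 and 1.17 in NF-kB-activated and 1.15 and 1.17 in control libraries. The lymphoma and Notch-labelled libraries lay above the other 6, and the plot of summed levels shows both groups apart. These are also the groups in which 1 V segment dominates and in which the proliferation markers were highest, at 1122 to 1325 CPM in lymphoma, 2411 to 2469 CPM in Notch-labelled and at most 622 CPM in the other groups. The part of cell type and proliferation in the ratio was not tested.

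NF-kB activation was accompanied by a change in 1 ribosomal protein gene. Of 82 genes tested, 1 fell and 0 rose relative to control by edgeR's quasi-likelihood test at an adjusted p under 0.05, where 8.72% of all 15583 genes rose and 6.6% fell. Unadjusted p was under 0.05 for 5 of the 82 genes, and DESeq2 called 3 falls and 0 rises, where it called 8.61% of all genes up and 8.27% down. With copies summed, 1 fell and 0 rose of 83, where 9.01% of all genes rose and 6.83% fell, and 3 had an unadjusted p under 0.05. The 7 neutrophil markers summed to 123 to 413 CPM in NF-kB-activated against 0.307 to 16.7 CPM in control libraries, and their part in the members' levels was not tested. The median log2 fold change of the 82 genes was −0.01. The gene that fell was Rpl22l1 (ENSMUSG00000039221, chr3:28805436-28807424, + strand, GRCm38), a paralog of Rpl22 that in mice is held down by Rpl22. It had 112 and 113 CPM in NF-kB-activated against 191 and 138 CPM in control libraries, a log2 fold change of −0.55 ± 0.13 (SE) with an adjusted p of 0.0167. The groups did not overlap, but the control libraries themselves lay far apart, and without control replicate 1 the change was −0.30 with an adjusted p of 0.0797. The call was also lost without NF-kB-activated replicate 1 (adjusted p = 0.0962) or replicate 2 (adjusted p = 0.0921). The spread of members around the control mean was taken over 77 genes with copies summed, leaving out the paralogs, Rpl22l1 among them. The standard deviation in log2 ratio was 0.09 and 0.10 in the NF-kB-activated libraries. The control libraries had 0.06 and 0.06, but each enters the mean it is compared with, so these values are low by construction.

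In the Notch-labelled libraries the ribosomal protein genes moved apart from each other. There, 14 of 82 genes rose and 35 fell relative to control, where 34.2% of all tested genes rose and 29.5% fell. With copies summed, 17 rose and 34 fell of 83, where 34.8% of all genes rose and 29.6% fell. A smaller share of the members than of all genes rose and a larger share fell; this difference was not tested. The median log2 change was −0.12 for the members and 0.07 for all genes. Scaling by library size alone moved the median of all genes to 0.18 and that of the members to −0.02, and 23 members then rose and 32 fell. The spread among members was wide. Over the same 77 genes with copies summed, the standard deviation of the log2 ratio was 0.47 and 0.45 in Notch-labelled libraries. It was 0.33 and 0.35 in lymphoma, 0.10 and 0.13 in doubly activated and at most 0.10 in NF-kB-activated and control libraries. The control libraries are themselves part of the mean used. Of these 77 genes, which leave out the paralogs, 19 and 20 were more than 0.5 log2 units from control in the Notch-labelled libraries. In the NF-kB-activated libraries it was 0 and 0, with Rpl22l1 not counted.

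In both subunits more genes fell than rose in the Notch-labelled libraries. Of 31 small subunit genes, 16 fell and 4 rose, with a median of −0.26. Of 51 large subunit genes, 19 fell and 10 rose, with a median of −0.01. The difference between the subunits was not tested. Rps15a (ENSMUSG00000008683, chr7:118104372-118116188, − strand), a small subunit protein, had 320 and 326 CPM in Notch-labelled against 856 and 779 CPM in control libraries, with a log2 fold change of −1.34 ± 0.09 and an adjusted p of 7.58e-08. Rpl37a, a zinc-binding large subunit protein, had 181 and 171 CPM in Notch-labelled against 338 and 341 CPM in control libraries (−0.95 ± 0.09). Rps6, the small subunit protein phosphorylated by S6 kinase, had 418 and 427 CPM alone in Notch-labelled against 1078 and 964 CPM in control libraries (−1.27 ± 0.08, adjusted p = 4.68e-08). Summed with its 8 copies, Rps6 was at 1183 and 1187 CPM in Notch-labelled against 1452 and 1372 CPM in control libraries (−0.25 ± 0.08, adjusted p = 0.0157). The fall of Rps6 was therefore called both ways, but most of its size lay in the split between the gene and its copies. The Rps27 family, which can be tested with copies only, had 264 and 266 CPM in Notch-labelled against 932 and 880 CPM in control libraries, and its fall of −1.78 ± 0.08 was the largest of any family there.

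Among the genes that rose in the Notch-labelled libraries, Rpl28, a large subunit protein, had 1609 and 1577 CPM in Notch-labelled against 782 and 859 CPM in control libraries (0.96 ± 0.10, adjusted p = 3.86e-06). Rplp0, the base of the stalk that recruits elongation factors, had 3573 and 3412 CPM in Notch-labelled against 2209 and 2169 CPM in control libraries (0.67 ± 0.10). The groups did not overlap for any of the 49 called genes, which the call itself makes likely and which adds no support to it. The paralogs Rps27l, Rpl39l and Rpl10l also rose and are described with the other paralogs. These libraries differ from control in several ways at once, including the stroma, B cell and proliferation markers given above, and the part of these in the members' changes was not tested.

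**Figure D2:**
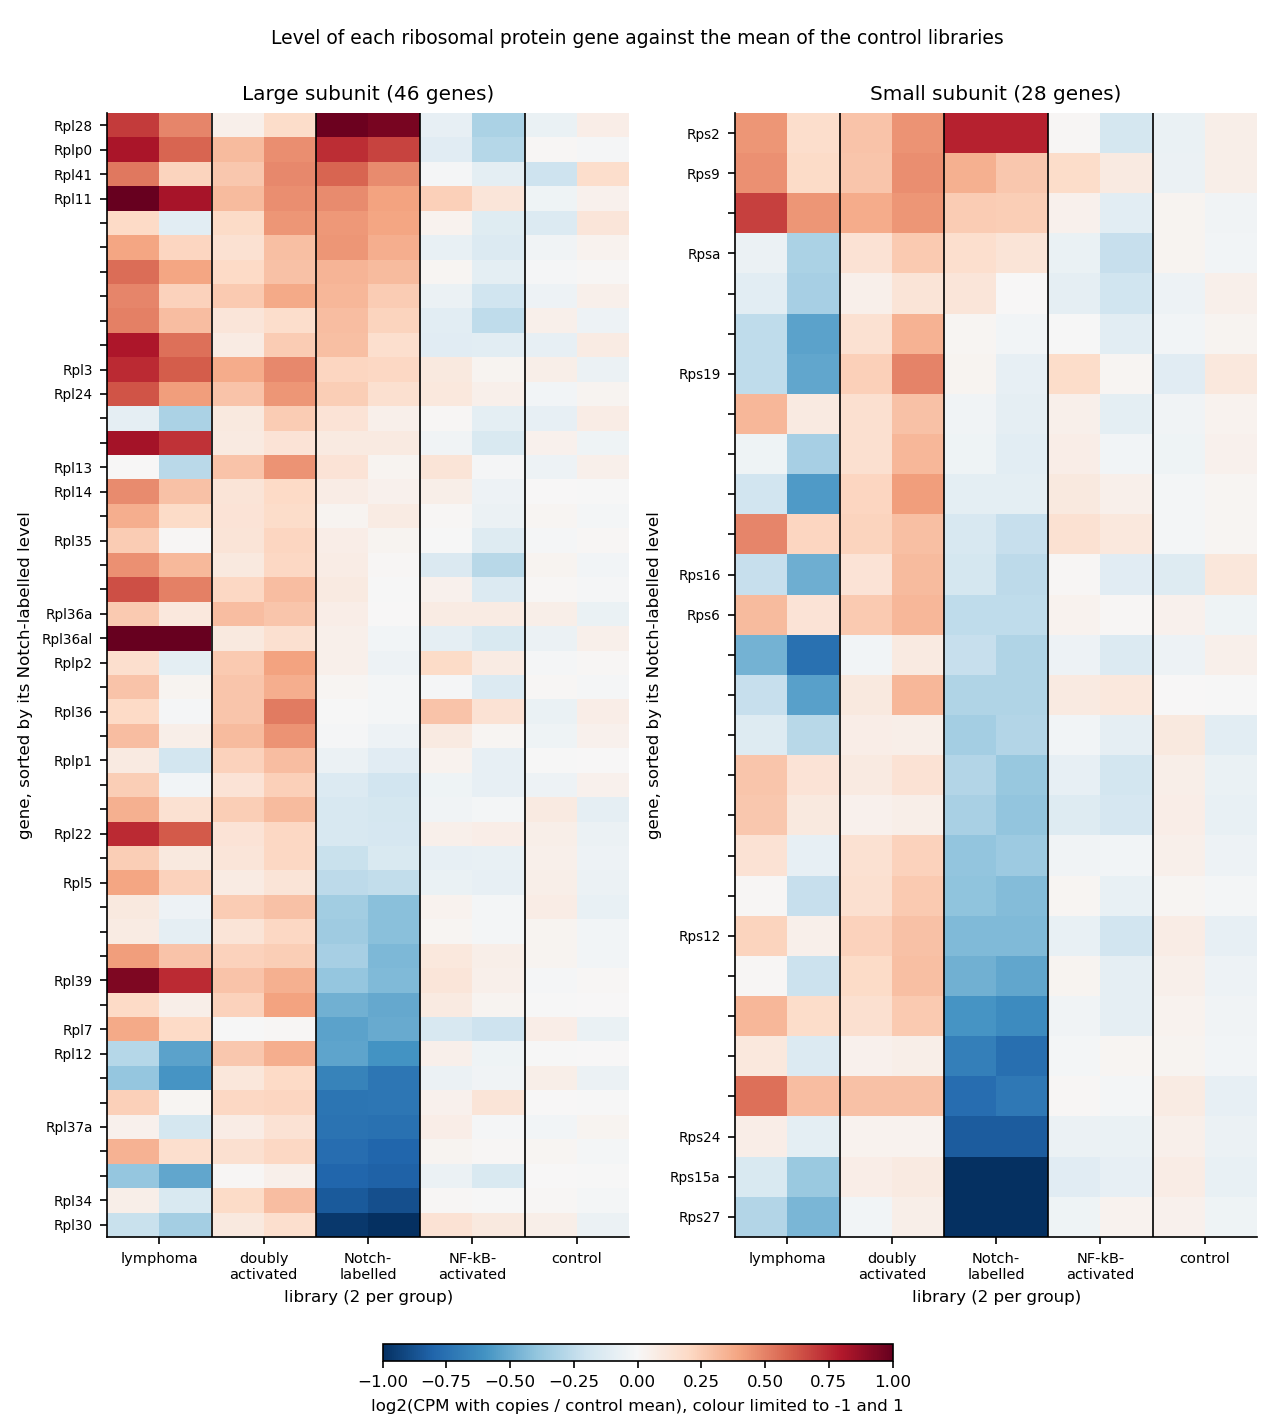
Level of 74 ribosomal protein genes with at least 500 TPM on average, each with copies summed, in each library against the mean of the control libraries (log2 ratio of CPM, colour limited to −1 and 1). Large subunit genes are on the left and small subunit genes on the right, sorted by their Notch-labelled level, with names for genes described in the text; Rpl28 and Rps2 are at the top, Rpl30, Rps15a and Rps27 at the bottom. Most genes are above the control mean in the doubly activated libraries.

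Doubly activated cells had slightly higher levels across the set. Relative to control, 21 of 82 genes rose and 0 fell, where 10.5% of all tested genes rose and 9.3% fell; with copies summed, 27 of 83 rose and 0 fell, where 10.9% of all genes rose and 9.54% fell. DESeq2 called 31 rises and 0 falls, against 10.1 and 10.3% of all genes, and 47 genes had an unadjusted p under 0.05. The median log2 change was 0.23 for the members and 0.00 for all genes, and 78 of 82 values were above 0. The largest rises were those of Rpl11, Rpl3, Rpl13 and Rpl36. Rpl11, the Mdm2-binding protein, had 590 and 638 CPM in doubly activated against 411 and 493 CPM in control libraries (0.44 ± 0.10, adjusted p = 0.00909). Rpl3, near the peptidyl transferase centre, had 2122 and 2295 CPM in doubly activated against 1710 and 1581 CPM in control libraries (0.42 ± 0.08, adjusted p = 0.00336). The groups did not overlap for any of the 21 genes, which the call itself makes likely and which adds no support to it. Rpl13 had 1755 and 1997 CPM in doubly activated against 1283 and 1523 CPM in control libraries (0.42 ± 0.12), and Rpl36 had 387 and 458 CPM in doubly activated against 301 and 332 CPM in control libraries (0.41 ± 0.10).

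The calls depended on 1 library. Without doubly activated replicate 2, 0 genes rose and 0 fell by edgeR, with 18 at an unadjusted p under 0.05 and a median change of 0.16, where 5.82% of all tested genes rose and 4.08% fell. Without doubly activated replicate 1, 15 rose and 1 fell. Without control replicate 1, 10 rose. Scaling by library size alone left 11 rises, and an offset for effective transcript length left 12. Leaving both lymphoma libraries out of the shared estimate of spread raised the count to 32, and leaving both Notch-labelled libraries out lowered it to 15. Across these settings the median stayed above 0, whereas the number of calls did not hold. The 6 immediate early and heat shock genes, which respond to cell handling, summed to 660 to 704 CPM in lymphoma, 1478 to 2548 CPM in doubly activated, 462 to 506 CPM in Notch-labelled, 159 to 236 CPM in NF-kB-activated and 357 to 1561 CPM in control libraries. Their ranges overlapped between doubly activated and control libraries, and their part in the members' levels was not tested.

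Against NF-kB-activated cells, 14 genes rose and 1 fell in doubly activated cells, where 6.62% of all tested genes rose and 7.28% fell. With copies summed, 22 rose and 1 fell, where 6.96% of all genes rose and 7.5% fell. DESeq2 called 40 rises and 1 fall, where it called 8.01% of all genes up and 7.98% down. The median change was 0.23. The largest rise was that of Rpl22l1, at 197 and 225 CPM in doubly activated against 112 and 113 CPM in NF-kB-activated libraries (0.91 ± 0.13, adjusted p = 0.00137). Rps12, a small subunit protein, had 389 and 379 CPM in doubly activated against 261 and 175 CPM in NF-kB-activated libraries (0.82 ± 0.18). The call was lost without doubly activated replicate 1 (adjusted p = 0.0830) or replicate 2 (adjusted p = 0.113). Its NF-kB-activated libraries differed from each other more than most members did, and with copies summed its change was 0.39 ± 0.09. Rplp0 had 2721 and 3014 CPM in doubly activated against 2023 and 1797 CPM in NF-kB-activated libraries (0.59 ± 0.10), and Rps2, a small subunit protein, had 1783 and 1997 CPM in doubly activated against 1478 and 1297 CPM in NF-kB-activated libraries (0.45 ± 0.10). The call of Rps2 was lost without NF-kB-activated replicate 2 (adjusted p = 0.168) or doubly activated replicate 2 (adjusted p = 0.161). The count fell to 2 rises without doubly activated replicate 2 and to 3 rises without NF-kB-activated replicate 2, and it was 30 rises without either lymphoma library. The 7 neutrophil markers all fell, with sums of 0.262 to 5.74 CPM in doubly activated against 123 to 413 CPM in NF-kB-activated libraries, and their part in the members' changes was not tested.

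Against the Notch-labelled libraries, 55 genes rose and 6 fell in doubly activated cells, where 30.9% of all tested genes rose and 33.2% fell. With copies summed, 54 rose and 7 fell of 83, where 31.1% of all genes rose and 33.8% fell. The median change was 0.38 for the members and −0.02 for all genes. Rps6 (1183 and 1147 CPM in doubly activated against 418 and 427 CPM in Notch-labelled libraries) and Rpl34 (605 and 658 CPM in doubly activated against 286 and 276 CPM in Notch-labelled libraries) were among the 4 largest rises, with Rpl22l1 and Rps15a. The rise of Rps6 was 1.46 ± 0.08 for the gene alone and 0.55 ± 0.08 with copies summed (adjusted p = 6.72e-05). Scaling by library size alone gave 40 rises and 14 falls. This comparison shares libraries with the comparisons of Notch-labelled against control and of doubly activated against control, so its values are not independent of theirs.

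The interaction tests whether the difference between doubly activated and Notch-labelled libraries equals that between NF-kB-activated and control libraries. It was called for 48 of 82 genes, 43 positive and 5 negative, where 23.9% of all tested genes were positive and 25.6% negative. Its median was 0.39 for the members and −0.05 for all genes. A positive value means that a gene was higher in doubly activated libraries than the 2 single changes add up to on the log2 scale. The largest were those of Rpl22l1 (2.46 ± 0.19), Rps15a (1.51 ± 0.12), Rps6 (1.45 ± 0.11) and Rpl34 (1.16 ± 0.12). These values rest on the Notch-labelled libraries, whose Notch2 level goes against their label and whose cell type label differs from that of the other 3 groups. With copies summed, 43 were positive and 4 negative of 83, where 24.1% of all genes were positive and 26.2% negative, and the interaction of Rps6 was then 0.53 ± 0.11.

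Lymphoma cells differed from doubly activated precursors in both directions. Of 82 genes, 24 rose and 25 fell, where 26.1% of all tested genes rose and 25.2% fell; the members' share was near that of all genes. With copies summed, 18 rose and 29 fell of 83, where 26.1% of all genes rose and 25.4% fell. The median change was 0.01 for genes alone and −0.07 with copies, and 0.01 for all genes. Small subunit genes made up 5 of the rises and 12 of the falls, and with copies 2 of the rises and 15 of the falls. Without lymphoma replicate 1, 14 rose and 29 fell, and without lymphoma replicate 2, 29 rose and 12 fell, so the balance of rises and falls depends on which lymphoma library is used. Of 6 plasma cell markers, 5 rose and 0 fell, with sums of 3005 to 3050 CPM in lymphoma against 862 to 1007 CPM in doubly activated libraries, and their part in the members' changes was not tested. Without doubly activated replicate 1, 14 rose and 23 fell, and without doubly activated replicate 2, 21 rose and 12 fell. Lymphoma replicate 1 was above replicate 2 for all 74 genes drawn in the map of levels by library.

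Among called members with at least 1 TPM in the higher group, the largest falls in lymphoma were those of Rpl22l1, Rpl12, Rps19 and Rps16. Rpl22l1 is described with the other paralogs. Rps19, mutated in human Diamond-Blackfan anaemia, had 964 and 801 CPM in lymphoma against 1341 and 1602 CPM in doubly activated libraries (−0.74 ± 0.12, adjusted p = 0.000256). Rps16 had 896 and 799 CPM in lymphoma against 1317 and 1465 CPM in doubly activated libraries (−0.71 ± 0.12). Rpl12, which binds at the base of the stalk, had 237 and 210 CPM in lymphoma against 374 and 408 CPM in doubly activated libraries (−0.81 ± 0.11, adjusted p = 7.04e-05). None of these groups overlapped, as is likely for called genes, and the 3 falls were also called with copies summed. Among the rises, Rpl11 had 1402 and 1234 CPM in lymphoma against 590 and 638 CPM in doubly activated libraries (1.10 ± 0.10, adjusted p = 2.21e-06). With its copies, Rpl11 was at 1879 and 1636 CPM in lymphoma against 1154 and 1278 CPM in doubly activated libraries, a smaller change of 0.53 ± 0.09. Rpl39, which lines the exit tunnel, rose by 0.53 ± 0.08 and Rpl22 by 0.53 ± 0.08.

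**Figure D3:**
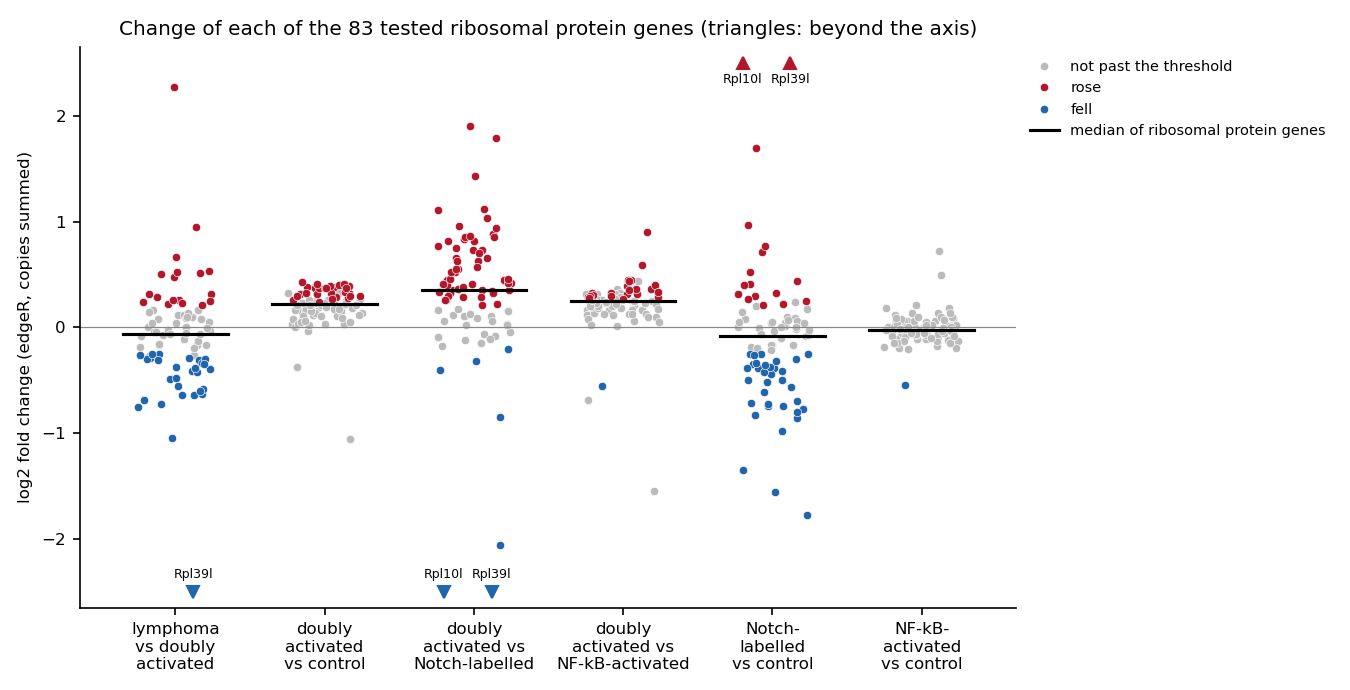
Log2 fold change of each of the 83 ribosomal protein genes tested with copies summed, in 6 comparisons; each point is a gene, red if it rose and blue if it fell at an adjusted p under 0.05, and the black line is the median. The points of NF-kB-activated against control lie close to 0, those of doubly activated against control lie mostly above it, and those of Notch-labelled against control and lymphoma against doubly activated spread to both sides.

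Lymphoma and Notch-labelled libraries, compared with different groups and sharing no library, had members in common. With copies summed, 16 genes fell in both, which is 47.1% of the 34 falls in Notch-labelled against control and 55.2% of the 29 falls in lymphoma against doubly activated. Among them were Rpl12, Rpl22l1, Rpl30, Rpl34, Rps15a and Rps27. Another 8 rose in both, which is 47.1% of 17 and 44.4% of 18, with Rpl11, Rpl28, Rpl3, Rplp0 and Rps27l among them. Opposite calls were made for 4 genes, of which Rpl39, Rpl5 and Rpl7 fell in Notch-labelled and rose in lymphoma cells. For the genes alone, 15 fell in both, which is 42.9% of 35 and 60% of 25, and 7 rose in both, which is 50% of 14 and 29.2% of 24. Another 7 fell in Notch-labelled and rose in lymphoma cells, and 1 rose in Notch-labelled and fell in lymphoma cells. With copies summed, 34 and 29 of 83 families fell, and calls this frequent share genes even where 2 comparisons are unrelated. The names are given after their values were seen. Whether this overlap exceeds that of other genes, or of unrelated comparisons, was not tested.

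The copies had a large part in single values. Over the 30 families in which copies held at least 10% of TPM, the median share of a family's TPM listed under copies was 33.3 and 33.7% in lymphoma, 47.2 and 48.6% in doubly activated, 48.4 and 53.003% in Notch-labelled, 46.2 and 46.4% in NF-kB-activated and 48.2 and 45.2% in control libraries. In lymphoma the share was lower than in both doubly activated libraries for 18 families, higher for 7 and overlapping for 5. Between doubly activated and control libraries it was lower for 3, higher for 3 and overlapping for 24. Under 5% of family TPM in copies was seen for 7 and 8 families in the lymphoma libraries and for 0 in each of the other 8 libraries.

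Rpsa, which encodes a small subunit protein also known as a laminin receptor, is singled out after its values were seen, as the member with opposite calls. The gene alone (ENSMUSG00000032518, chr9:120127689-120132369, + strand) had 2189 and 1828 CPM in lymphoma against 1197 and 1260 CPM in doubly activated libraries, a rise of 0.71 ± 0.09 (adjusted p = 5.08e-05). With its copies it had 2193 and 1831 CPM in lymphoma against 2529 and 2738 CPM in doubly activated libraries, a fall of −0.39 ± 0.10 (adjusted p = 0.00482). The copy Rpsa-ps10 was listed at 19.2 and 17.2 TPM in lymphoma against 1994 and 2110 TPM in doubly activated libraries, and at 1646 to 2216 TPM in the other 3 groups. Rpl14, a large subunit protein, had 1030 and 895 CPM alone in lymphoma against 505 and 527 CPM in doubly activated libraries (0.90 ± 0.08), and 1085 and 956 CPM with copies in lymphoma against 853 and 897 CPM in doubly activated libraries (0.22 ± 0.08, adjusted p = 0.0374). Rpl14-ps1 was listed at 127 and 149 TPM in lymphoma against 844 and 855 TPM in doubly activated libraries. A further 6 rises in lymphoma were lost with copies summed, those of Rpl37a, Rpl35 and Rpl24 among them.

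How alike a gene and its copy are can be read from their sequences. The coding sequence of Rpsa-201 is 888 bases long and differs from Rpsa-ps10 (chr3:150072658-150073542, − strand, GRCm38) at 6 aligned bases, an identity of 99.3%. That of Rpl14-201 differs from Rpl14-ps1 (chr7:45324965-45325617, + strand, GRCm38) at 4 aligned bases. Rps27-201 and Rps27rt (chr9:114982366-114982739, − strand, GRCm38) are identical over the 255 coding bases. A stretch of 60 coding bases is shown for each pair, from coding base 160 of Rpsa-201, 364 of Rpl14-201 and 1 of Rps27-201, because only a read that covers a capital can tell gene and copy apart there. Capitals mark the bases that differ within the pair, 2 for Rpsa, 2 for Rpl14 and 0 for Rps27.
Rpsa-201: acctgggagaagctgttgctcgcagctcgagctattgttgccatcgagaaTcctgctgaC
Rpsa-ps10: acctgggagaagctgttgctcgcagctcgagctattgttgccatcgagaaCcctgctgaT
Rpl14-201: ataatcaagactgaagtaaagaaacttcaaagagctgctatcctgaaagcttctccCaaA
Rpl14-ps1: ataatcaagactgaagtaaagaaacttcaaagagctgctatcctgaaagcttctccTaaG
Rps27-201: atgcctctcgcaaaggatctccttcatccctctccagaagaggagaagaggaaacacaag
Rps27rt: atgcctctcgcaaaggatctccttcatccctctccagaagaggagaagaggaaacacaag

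**Figure D4:**
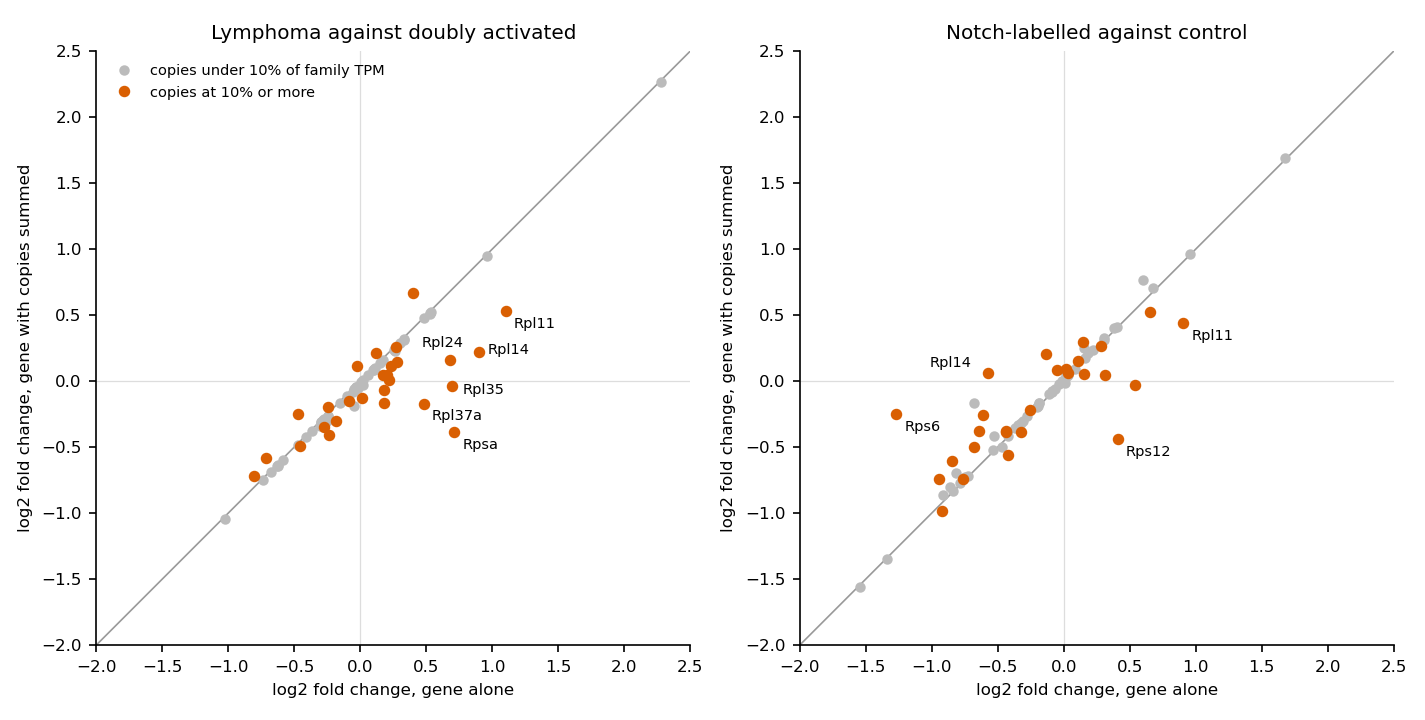
Log2 fold change of each ribosomal protein gene alone (horizontal axis) and with its copies summed (vertical axis), for lymphoma against doubly activated (left) and Notch-labelled against control libraries (right); genes under 1 TPM and values beyond 2.5 are not drawn. Orange points are genes whose copies hold at least 10% of family TPM, and names mark genes described in the text that differ by more than 0.4; Rpsa lies at 0.71 alone and −0.39 with copies, and Rps6 in the Notch-labelled libraries at −1.27 alone and −0.25 with copies.

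By structural role, the members changed as follows. The P stalk, which binds translation factors, consists of Rplp0, Rplp1, Rplp2 and the neighbouring Rpl12. In doubly activated against control libraries 3 of the 4 rose, Rplp0, Rplp2 and Rpl12, and in lymphoma against doubly activated libraries Rplp0 rose (0.33 ± 0.10) while Rplp1, Rplp2 and Rpl12 fell. Rplp1 had 1345 and 1117 CPM in lymphoma against 1469 and 1551 CPM in doubly activated libraries (−0.29 ± 0.09). In the Notch-labelled libraries Rplp0 rose and Rpl12 fell (−0.42 ± 0.11), while Rplp1 (−0.09 ± 0.09) and Rplp2 (−0.01 ± 0.10) did not pass the test. Against control, 34.2% of all tested genes rose and 29.5% fell in these libraries. The 4 stalk genes therefore did not move as a block in either comparison.

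Rpl5 and Rpl11 form a particle with the 5S ribosomal RNA. Rpl5 alone had 163 and 157 CPM in lymphoma, 147 and 148 CPM in doubly activated, 97.0 and 93.3 CPM in Notch-labelled, 152 and 147 CPM in NF-kB-activated and 138 and 153 CPM in control libraries. Most of the Rpl5 family was listed under its identical copy Gm15500, whose level was between 1805 and 2174 TPM, so that Rpl5 alone stood at 121 to 239 TPM. In the Notch-labelled libraries Rpl5 fell by 0.61 on the log2 scale while Rpl11 rose by 0.90 ± 0.10. With copies summed, the changes there were −0.25 ± 0.08 for Rpl5 (adjusted p = 0.0145) and 0.44 ± 0.09 for Rpl11 (adjusted p = 0.000965). In lymphoma against doubly activated cells with copies summed, both rose.

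Of the 14 proteins of the small subunit head, 5 fell and 1 rose in Notch-labelled against control libraries and 6 fell and 2 rose in lymphoma against doubly activated libraries. Of the 8 large subunit proteins at the exit tunnel, where the growing chain leaves the ribosome, 4 fell and 0 rose in Notch-labelled and 3 rose and 0 fell in lymphoma libraries. Of the 15 tested genes mutated in human Diamond-Blackfan anaemia, an inherited failure of red cell production, 3 rose and 6 fell in Notch-labelled, 3 rose and 0 fell in doubly activated libraries, each against control, and 3 rose and 4 fell in lymphoma against doubly activated libraries. Of all tested genes, 34.2% rose and 29.5% fell in Notch-labelled against control, 10.5% rose and 9.3% fell in doubly activated against control, and 26.1% rose and 25.2% fell in lymphoma against doubly activated libraries. Nothing particular to any of these lists is read from the counts.

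Several paralogs differed widely between groups. Where a paralog is given as a percentage of its partner, the TPM of both include their copies. Rpl22l1 stood at 12.95 and 12.5% of the TPM of Rpl22 in lymphoma, 36.8 and 38.1% in doubly activated, 13.8 and 13.2% in Notch-labelled, 24.1 and 22.4% in NF-kB-activated and 36.7 and 30.3% in control libraries. The lymphoma and Notch-labelled libraries were lowest and the NF-kB-activated libraries lay between them and the rest. In lymphoma Rpl22l1 had 110 and 97.9 CPM against 197 and 225 CPM in doubly activated libraries (−1.03 ± 0.13, adjusted p = 6.81e-05) while Rpl22 rose. In Notch-labelled libraries it had 57.8 and 54.9 CPM against 191 and 138 CPM in control libraries (−1.54 ± 0.14, adjusted p = 2.02e-06) while Rpl22 did not pass the test (−0.18 ± 0.08).

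Rps27l (ENSMUSG00000036781, chr9:66946086-66949516, + strand), a paralog of Rps27 and a known p53 target gene, changed in the other direction. It had 77.5 and 70.8 CPM in lymphoma, 17.7 and 12.7 CPM in doubly activated, 61.6 and 65.1 CPM in Notch-labelled, 23.9 and 21.1 CPM in NF-kB-activated and 19.2 and 20.4 CPM in control libraries. It rose by 2.28 ± 0.14 in lymphoma against doubly activated (adjusted p = 5.81e-08) and by 1.68 ± 0.14 in Notch-labelled against control libraries (adjusted p = 4.43e-07). With copies summed for both, it was 6.19 and 6.39% of the TPM of Rps27 in lymphoma and 13.8 and 14.7% in Notch-labelled libraries. It was 1.17 and 0.790% in doubly activated, 1.60 and 1.34% in NF-kB-activated and 1.21 and 1.37% in control libraries. The ratio was highest in Notch-labelled libraries, where Rps27 with its copies fell. Rps27l itself had its highest CPM in lymphoma libraries. Between doubly activated and NF-kB-activated libraries it was called lower (−0.56 ± 0.14, adjusted p = 0.0221), and this call was lost without doubly activated replicate 2 (adjusted p = 0.207) or NF-kB-activated replicate 1 (adjusted p = 0.136). It was also lost with the effective length offset (adjusted p = 0.0507) and with protein coding transcripts only (adjusted p = 0.0701).

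Rpl39l (ENSMUSG00000039209, chr16:10170226-10174911, + strand) and Rpl10l are paralogs known from male germ cells in mice. Rpl39l was at 0 and 0 TPM in lymphoma, 0.388 and 0.436 TPM in doubly activated, 30.5 and 44.1 TPM in Notch-labelled, 1.55 and 1.18 TPM in NF-kB-activated and 0.451 and 1.20 TPM in control libraries. Its level in the Notch-labelled libraries was that of 187 and 273 estimated counts, and the fitted log2 change against control was 5.44 ± 0.52 (adjusted p = 3.38e-06). Even there it stood at 2.84 and 4.19% of Rpl39. Rpl10l had 23 and 27 counts in the Notch-labelled libraries, 1 in all in each of the lymphoma and NF-kB-activated groups, and 0 in doubly activated and control libraries. Against the limit of 3 counts over the control group, with library sizes scaled by TMM, Rpl10l was at least 14.3-fold higher in Notch-labelled libraries. Rpl36al, a paralog of the X-linked Rpl36a, had 454 and 413 CPM in lymphoma against 218 and 227 CPM in doubly activated libraries (0.96 ± 0.08, adjusted p = 7.87e-07), and reached 67.6 and 68.0% of Rpl36a there, against 31.6 and 33.9% in doubly activated libraries. Rpl7l1, an assembly factor related to Rpl7, ranged from 94.3 to 116 CPM over the 10 libraries and passed the test in none of the 7 comparisons as a gene alone. Rpl3l, known from striated muscle, had too few counts to be tested.

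**Figure D5:**
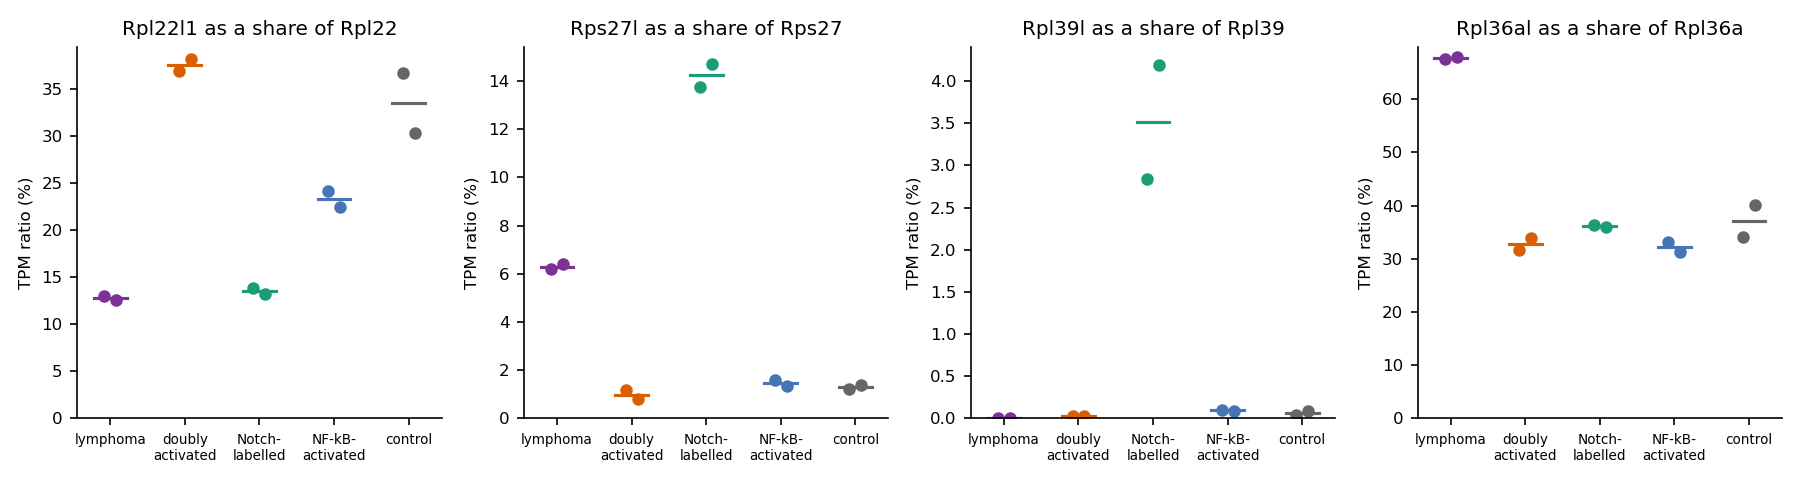
TPM of 4 paralogs as a percentage of the TPM of their canonical partner (both with their copies) in each library. Points are libraries, lines are group means, and each panel has its own axis from 0. The ratio of Rpl22l1 is lowest in lymphoma and Notch-labelled libraries, those of Rps27l and Rpl39l are highest in Notch-labelled libraries. The ratio of Rpl36al is highest in lymphoma libraries. Rps27l itself had its highest CPM in lymphoma, and Rps27 with its copies fell in Notch-labelled libraries.

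Start sites were read from RefSeq promoter windows (GRCm38.p6), which matched 64 of the 84 members. A run of at least 8 C or T bases beginning with C within 10 bases of an annotated start was found in 24 of the 64 genes, or 37.5%, against 9.43% of 27025 genes with a window and 7.25% of 69 mitochondrial ribosomal protein genes. The letters CCGGAAG on either strand, a match to the ETS family, were found within the window of 250 bases before to 50 after the start in 40.6% of members, 9.93% of all genes and 37.7% of mitochondrial ribosomal protein genes. TATAAA on either strand was found in 10.9% of members and 15.7% of all genes. These are matches of letters, and annotated starts can lie several bases from the start in use. The windows below run from 10 bases before to 20 bases from the start, on the gene's strand. They are shown for only some of the genes named above. Capitals mark the longest run of C and T that begins with C.
Rps15a, chr7:118116128-118116157, − strand: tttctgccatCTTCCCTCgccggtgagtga
Rps6, chr4:86857348-86857377, − strand: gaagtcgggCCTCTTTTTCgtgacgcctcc
Rpl28, chr7:4792955-4792984, + strand: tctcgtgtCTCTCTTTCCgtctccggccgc
Rpl14, chr9:120571507-120571536, + strand: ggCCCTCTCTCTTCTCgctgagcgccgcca
Rps27, chr3:90213629-90213658, − strand: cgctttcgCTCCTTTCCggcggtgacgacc
Rpl22l1, chr3:28805498-28805527, + strand: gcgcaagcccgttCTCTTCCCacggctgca
Rpl39l, chr16:10170218-10170247, + strand: aggCCTTTCCggatttccggtggtcgccat
Rpl36al, chr12:69184048-69184077, − strand: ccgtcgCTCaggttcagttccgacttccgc
Among the genes shown, runs of 8 or more stood at the start of Rps15a, Rps6 and Rpl22l1, which fell in the Notch-labelled libraries. Such runs were also seen for Rpl14, whose fall was called for the gene alone only, and for Rps27, which fell with copies summed. Rpl28, which rose, had one too. The paralogs Rpl39l and Rpl36al had runs of 7 and 3. Of the named genes not shown, Rpsa and Rpl11 had longest runs of 2 and Rplp0 of 3, while Rps12 had 11 and Rpl34 had 13. A relation between runs and changes was not tested.

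The libraries also differed in which transcripts of a gene were listed. In lymphoma the noncoding transcript Rpl11-203 held 0.940 and 0.761% of Rpl11 TPM against 33.4 and 38.8% in doubly activated libraries, and the retained-intron transcript Rpl21-206 held 0.0887 and 0.448% of Rpl21 TPM against 39.7 and 42.2% in doubly activated libraries. In Notch-labelled libraries Rps18-201 held 17.9 and 18.1% of Rps18 TPM against 59.9 and 60.8% in control libraries, and Rpl38-204 held 16.5 and 24.0% of Rpl38 TPM against 67.2 and 66.6% in control libraries. Retained-intron transcripts took 2.88 and 2.57% of the members' counts in lymphoma and 3.83 to 4.19% in the other 8 libraries. Summing protein coding transcripts only left 25 rises and 24 falls in lymphoma against doubly activated libraries.

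The 78 mitochondrial ribosomal protein genes, which serve the ribosome inside mitochondria, rose in 57 cases and fell in 1 in Notch-labelled against control libraries, with a median of 0.48, where 34.2% of all tested genes rose and 29.5% fell. In lymphoma against doubly activated libraries 42 rose and 0 fell, with a median of 0.37, where 26.1% of all tested genes rose and 25.2% fell. The difference between the mitochondrial and the cytosolic set was not tested. Their summed level was 4005 and 4023 TPM in lymphoma, 3488 and 3398 TPM in doubly activated, 5851 and 5878 TPM in Notch-labelled, 3589 and 3589 TPM in NF-kB-activated and 3528 and 3677 TPM in control libraries. In TPM, the cytosolic set was highest in doubly activated libraries, where the mitochondrial set was lowest. Fau and Rack1 encode cytosolic ribosomal proteins under other names. Rack1 rose in doubly activated against NF-kB-activated libraries (0.44 ± 0.09), and Fau fell (−0.48 ± 0.16) in lymphoma against doubly activated libraries.

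Of 18 other genes known for a TOP tract, mostly translation factors, 10 rose and 1 fell in lymphoma against doubly activated libraries, where 26.1% of all tested genes rose and 25.2% fell. In doubly activated libraries 0 rose and 1 fell against control, where 10.5% of all genes rose and 9.3% fell, and 10 rose and 0 fell against NF-kB-activated libraries, where 6.62% rose and 7.28% fell. Against the Notch-labelled libraries 3 rose and 9 fell in doubly activated libraries, where 30.9% of all genes rose and 33.2% fell. In Notch-labelled against control libraries 11 rose and 2 fell, where 34.2% of all genes rose and 29.5% fell. In NF-kB-activated against control libraries 0 rose and 4 fell, where 8.72% of all genes rose and 6.6% fell. Hnrnpa1, an RNA-binding protein, had 704 and 681 CPM in doubly activated against 481 and 478 CPM in NF-kB-activated libraries (0.53 ± 0.08). Tpt1, a growth-related translation protein, had 974 and 1000 CPM in Notch-labelled against 1807 and 1525 CPM in control libraries (−0.76 ± 0.09). Eif3l, a subunit of initiation factor eIF3, rose in Notch-labelled libraries by 0.74 ± 0.07. Of 13 genes of the mTORC1 pathway, 6 rose and 1 fell in lymphoma against doubly activated libraries, 2 rose and 7 fell in doubly activated against Notch-labelled libraries, and 8 rose and 1 fell in Notch-labelled against control libraries, with the shares of all genes as just given. In doubly activated libraries 1 rose and 0 fell against control, as against NF-kB-activated libraries, and in NF-kB-activated against control libraries 0 rose and 0 fell. The gene that rose against control was Larp1, with 319 and 340 CPM in doubly activated against 232 and 250 CPM in control libraries (0.45 ± 0.08, adjusted p = 0.0013).

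Myc had 496 and 747 CPM in doubly activated against 246 and 125 CPM in control libraries (1.75 ± 0.37, adjusted p = 0.0243), and 232 and 204 CPM in lymphoma libraries, a fall of −1.51 ± 0.37 against doubly activated libraries. Of the p53 partners of Rpl5 and Rpl11, Mdm2 had 151 and 151 CPM in lymphoma against 91.5 and 96.6 CPM in doubly activated libraries (0.68 ± 0.07), and 76.0 and 77.4 CPM in Notch-labelled against 97.4 and 97.0 CPM in control libraries (−0.34 ± 0.07, adjusted p = 0.00112). Cdkn1a, a p53 target, had 14.9 and 12.2 CPM in lymphoma against 0.668 and 0.392 CPM in doubly activated libraries and 32.4 and 42.0 CPM in Notch-labelled against 1.29 and 1.14 CPM in control libraries. Cdkn1a and Rps27l were thus both high in lymphoma and Notch-labelled libraries, where Mdm2 changed in opposite directions. Trp53, which encodes p53, had 154 and 139 CPM in lymphoma against 202 and 197 CPM in doubly activated libraries. It had 340 and 314 CPM in Notch-labelled against 193 and 203 CPM in control libraries. A p53 response was not tested. Of 6 carriers that escort new ribosomal proteins, only Tsr2, the carrier of Rps26, is named. It had 22.9 and 31.3 CPM in doubly activated against 17.1 and 17.7 CPM in control libraries, a rise of 0.64 ± 0.16. In lymphoma against doubly activated libraries it fell (−0.70 ± 0.16). Of all tested genes, 10.5% rose in the former comparison and 25.2% fell in the latter. Nothing about the 6 carriers as a set is read from Tsr2.

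The genes whose log2 CPM over the 10 libraries was most like the members' mean were Kxd1 (Pearson r = 0.966), Elmod3 (0.960), Natd1 (0.945), Tpt1-ps3 (0.940) and Rps6kb2 (0.929), the last encoding an S6 kinase. These correlations describe 10 libraries that fall into 5 groups and share the scaling. Across members, the change in Notch-labelled libraries was related to base composition, with a Spearman correlation of 0.35 between log2 change and GC content over 82 genes, against 0.27 over all 15583 genes. In doubly activated libraries the same correlation was 0.349 over members and 0.0854 over all genes against control, and 0.348 over members and 0.0728 over all genes against NF-kB-activated libraries. In lymphoma against doubly activated libraries it was −0.0613 over members and −0.0294 over all genes. In Notch-labelled against control libraries, 18 of 28 families in the third with the lowest GC, 39.8 to 49.5%, fell and 3 rose. In the third with the highest GC, 54.0 to 60.8%, 5 of 27 families fell and 9 rose in that comparison. There, with copies summed, 29.6% of all genes fell and 34.8% rose, whatever their GC. With an offset for GC, 17 members rose and 42 fell in Notch-labelled against control libraries and 21 rose and 0 fell in doubly activated against control libraries.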

How the data were processed

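Estimated counts and TPM per transcript were deposited by the authors, in 1 table per library. They come from kallisto 0.44.0 and build mm10, per the submitters' processing notes; no source used here names a transcript release. Of 88198 transcripts, 86031 matched GENCODE M21, and estimated counts and TPM were summed per gene and counts rounded. The effect of reads shared with copies is given with the results. The 84 members, all lists and tests were chosen with earlier results of these data known. Genes passing filterByExpr (minimum count 10, minimum total 15; 15583 genes) were tested with edgeR 4.0.16 (quasi-likelihood, TMM scaling, all 5 groups in one fit, 5 residual degrees of freedom, Benjamini-Hochberg adjustment over all tested genes, threshold 0.05) in R 4.3.3 with limma 3.58.1. A test on simulated data, with means and spread taken from the fit of these data, was also run. CPM are counts scaled to library size times the TMM factor. DESeq2 1.42.0, other scalings, no filter, offsets for effective length and GC content, protein coding transcripts only, the replicate block, summed copies and leaving out libraries were alternatives. Members named are the 4 largest rises and 4 largest falls called per comparison with at least 1 TPM in the higher group, the 5 highest and 5 lowest in mean TPM, the stalk, the 5S particle and the paralogs with their partners. Other lists name at most 4 genes, those with the smallest p. Figures used Python 3.11.15 and matplotlib 3.10.9. Some genes are not reported here by name or drawn singly.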

Additional observations from a re-analysis of the deposited data

Results flagged for a closer look

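The interaction between NF-kB activation and the Notch-labelled state, in which the Notch allele and the cell type label cannot be told apart, was called for 48 of the 82 ribosomal protein genes tested. It was positive for 43 and negative for 5, where 23.9% of all tested genes were positive and 25.6% negative. For these members the difference of doubly activated from Notch-labelled libraries was not that of NF-kB-activated from control libraries. Among the named members it was 2.46 for Rpl22l1, 1.51 for Rps15a, 1.45 for Rps6 and 1.16 for Rpl34 on the log2 scale. It was −2.24 for Rps27l, −0.73 for Rpl11 and −6.99 for Rpl39l. The fitted value of −9.86 for Rpl10l depends on the prior count, since this gene had 0 counts in the doubly activated and control libraries. Its call was lost with a replicate block (adjusted p = 0.0592) and in 7 of the fits that left out 1 library (adjusted p of 0.0595 or more). With copies summed, the value of Rpl11 was −0.23 and was not called.

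Copies outside the rule stood out in the Notch-labelled libraries, above their level in control libraries. Rps13-ps2 averaged 514 TPM there (427 and 600 TPM), against 0 TPM in the control libraries. Rps26-ps1 averaged 259 TPM (254 and 264 TPM), against 1.13 and 1.99 TPM in control libraries. Rps2-ps13 averaged 185 TPM (169 and 201 TPM), against 0.938 and 0.496 TPM in control libraries.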

How the results depend on the processing

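Of 934 values of 42 named gene results under alternative settings, 905 kept direction and side of the threshold, 29 kept direction but lost the call, and 0 reversed. The gene alone and the family with copies gave opposite calls for Rpsa, which is not among those 42. Called members of NF-kB-activated against control numbered 3 by DESeq2 and 2 with the GC offset. Those of doubly activated against control numbered 11 with library size alone, 12 with the effective length offset and 32 with both lymphoma libraries left out. Those of doubly activated against NF-kB-activated numbered 41 by DESeq2, 9 with the effective length offset, 23 with copies summed, 33 with copies summed and the GC offset, and 31 with both lymphoma libraries left out. Copies, GC offset and groups left out were settings chosen after seeing the data. The cause of these shifts was not tested. The ratio of summed levels was 1.01 for Notch-labelled to control with library size alone, 1.09 for doubly activated to control in TPM and 0.848 for lymphoma to doubly activated in TPM.

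Leaving out each library in turn gave 0 to 3 called members in NF-kB-activated against control, 42 to 55 in Notch-labelled against control, 0 to 32 in doubly activated against control, 2 to 31 in doubly activated against NF-kB-activated, 49 to 63 in doubly activated against Notch-labelled, 33 to 51 in lymphoma against doubly activated and 38 to 54 for the interaction. A replicate block moved the count of doubly activated against NF-kB-activated to 10 and left 19 in doubly activated against control. Same-numbered libraries did not deviate together across genes (r between −0.118 and 0.107 over 10376 genes). The labels do not say whether a number pairs libraries, and these correlations cannot settle it. With 2 libraries a group, small changes of single members are near the limit of what the test calls.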
